A study of Mus musculus with 8 samples.

Results

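The 46 genes described here encode members of the nuclear receptor superfamily, and they were measured by RNA sequencing (RNA-seq) in the dorsal epidermis of mice at postnatal day 4 (P4). They were chosen by name from a list of receptor genes, with earlier results of these data known. All 46 were found among the 55416 genes quantified. The series holds 8 libraries, 4 labelled wild type (here control, libraries A1, B1, C1 and C6) and 4 of RoraEKO mice (libraries A3, B4, C2 and C3). RoraEKO mice carry floxed alleles of Rora (Rora flox/flox) and a K14-Cre transgene, in which a keratin 14 promoter drives the recombinase in basal keratinocytes, so that their descendants and the hair follicle epithelium inherit the recombined allele. The controls are littermates, and whether they carry the floxed alleles or Cre is not given in the sources used here, nor is the hour of day at which the pups were sampled. Skin of both genotypes was briefly heated so that the epidermis could be peeled from the dermis, and the number of mice sampled per genotype equals the number of libraries.

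Nuclear receptors are transcription factors that bind DNA through a zinc-finger domain, and many are switched by small lipophilic ligands such as retinoids, vitamin D, thyroid hormone, steroids, oxysterols and fatty acids. Retinoid X receptors (RXRs) serve as the shared partner of the retinoic acid, vitamin D, thyroid hormone, liver X and peroxisome proliferator-activated receptors, whereas RORα, the product of the targeted gene, binds a single AGGTCA motif as a monomer and activates transcription. REV-ERBα and REV-ERBβ, encoded by Nr1d1 and Nr1d2, compete for the same element as repressors, and together with RORα they connect the receptor family to the circadian clock. In skin, retinoid, vitamin D, glucocorticoid, PPAR and LXR signalling are known for their effects on keratinocyte differentiation, lipid synthesis and the barrier.

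Library totals ran from 17286903 to 26705533 estimated counts, and 13147 genes passed the filter on low counts. Markers of spinous keratinocytes (Krt1, Krt10, Dsg1a and Dsc1) summed to between 37600 and 64600 counts scaled to library size (CPM) in the control libraries and to between 79700 and 100000 in those labelled RoraEKO. Markers of basal keratinocytes (Krt5, Krt14, Col17a1 and Itga6) were far lower, at 150 to 465 and 187 to 1130 CPM, although the tissue is labelled as whole epidermis. Hair follicle markers ranged from 4190 to 32300 CPM and from 8470 to 21800 CPM, those of dermal fibroblasts did not exceed 6.38 and 10.4 CPM, and those of adipocytes did not exceed 0.799 CPM. No marker passed the cutoffs, but the genotypes did not overlap for Krt1, Krt10 and the granular marker Casp14, higher in the libraries labelled RoraEKO, and for the melanocyte marker Pmel, lower (edgeR adjusted p = 0.287, 0.274, 0.0717 and 0.104). The other granular markers, Ivl, Loricrin and Flg, had log2 fold changes of -0.41, -0.20 and 0.01, and the granular sums overlapped, at 8810 to 12100 and 8400 to 12700 CPM. Erythroid markers summed to 31.8 to 216 CPM in control and 83.6 to 666 CPM in the libraries labelled RoraEKO, and melanocyte markers to 25.2 to 56.2 and 17.3 to 33.2 CPM. Xist, transcribed from the inactive X chromosome, stood at 416 and 527 CPM in control C1 and C6 and at no more than 0.0546 CPM in the other 6 libraries, whereas the Y-linked gene Ddx3y was at 0 in those 2 controls and at 15.7 to 24.1 CPM in the other 6. With Xist as a covariate the log2 fold changes (RoraEKO minus control) described below became -4.17 for Nr1d1 and -1.50 for Nr1d2, both still past the cutoffs (edgeR adjusted p = 0.00049 and 0.0119). The part of the marker differences in the receptor values was not tested, and in such bulk samples fewer cells of a type and less RNA per cell cannot be told apart.

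In control epidermis, 16 of the 46 receptors were expressed, which here means at least 1 TPM (counts scaled by gene length and library size) in every control library. They were, from the highest mean level to the lowest, Rarg, Rxra, Rora, Nr1h2, Ppard, Vdr, Rxrb, Nr1d1, Esrra, Rara, Nr3c1, Thra, Nr2f6, Nr1d2, Thrb and Nr6a1. A further 17 receptors were detected at lower levels, and 13 were not detected, with at most 3 counts in each of the 8 libraries. At the depth of these libraries 3 counts equal 0.112 to 0.174 CPM, and these limits cover counting error only. Summed over all 46 genes, receptor transcripts amounted to 278 ± 20.2 TPM (SD, n = 4) in the control libraries and 278 ± 67.8 TPM (SD, n = 4) in the libraries labelled RoraEKO.

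Rarg, which encodes retinoic acid receptor γ, and Rxra, which encodes the RXRα partner subunit, stood apart from the rest. The level of Rarg was 74.9, 68.6, 58.2 and 57.4 TPM in control A1, B1, C1 and C6. That of Rxra was 50.2, 77.8, 68.2 and 58.5 TPM in the same libraries. The ranges of these genes overlapped each other, and the lowest Rxra value lay above the highest value of the next gene, Rora. Within their own subfamilies the isotypes were unequal: Rarg made up 89.1 to 92.4% of retinoic acid receptor TPM and Rxra 77.6 to 89.6% of RXR TPM in the control libraries.

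A second tier held 4 receptors whose control ranges overlapped from neighbour to neighbour. Rora, the gene targeted in the RoraEKO mice, was at 19.8, 25.4, 23.8 and 37.4 TPM, with control C6 the highest. Nr1h2, which encodes the oxysterol receptor LXRβ, was at 29.5, 26.9, 19.1 and 24 TPM, and its counterpart Nr1h3 (LXRα) did not exceed 0.205 TPM. These levels place Rora and Nr1h2 side by side, with no order that held in all 4 libraries. Ppard, encoding the fatty acid receptor PPARδ, was at 24.1, 22.4, 18.1 and 18.7 TPM and accounted for 97.8 to 99.7% of the TPM of the 3 PPAR genes. Vdr, the vitamin D receptor gene, was at 26.7, 17.1, 15.6 and 15 TPM, and control A1 was the high library. With the length of the longest transcript in place of the union of exons, the order within this tier became Ppard, Nr1h2, Rora and Vdr, at mean levels of 38.1, 34.9, 31.7 and 22.1 TPM, so the ranks inside it rest on the length used.

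Below a gap that all 4 control libraries shared came Rxrb, Nr1d1 and Esrra. Rxrb, encoding RXRβ, measured 14.5, 12.1, 7.94 and 8.79 TPM. Nr1d1, encoding REV-ERBα, measured 9.5, 13.1, 6.74 and 11.7 TPM. Esrra, which encodes the oestrogen-related receptor ERRα, a regulator of mitochondrial metabolism with no known hormone, measured 8.93, 10.8, 10.5 and 9.94 TPM. The ranges of these 3 genes overlapped, and Esrra varied least among them. With the longest transcript as length, Esrra averaged 17.6 TPM, against 22.1 for Vdr, 11.5 for Rxrb and 10.5 for Nr1d1. The order of these genes thus rests on the length used, and the gap and the overlaps were read with the union of exons alone.

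Rara (retinoic acid receptor α) was at 5.48, 6.67, 6.75 and 4.59 TPM, apart from Esrra above it but not from Nr3c1 and Thra below it. Nr3c1, the glucocorticoid receptor gene, averaged 4.97 ± 0.906 TPM (SD, n = 4), and Thra, which encodes thyroid hormone receptor α, averaged 4.72 ± 0.423 TPM (SD, n = 4). Nr2f6, an orphan receptor of the COUP-TF group, averaged 3.21 ± 0.428 TPM (SD, n = 4). Nr1d2 (REV-ERBβ), Thrb (thyroid hormone receptor β) and Nr6a1 (germ cell nuclear factor) closed the list at mean levels of 1.78, 1.77 and 1.58 TPM, and these 3 overlapped each other. Nr1d2 thus stood at 0.136 to 0.208 of the TPM of Nr1d1, and Thra made up 67.2 to 78.4% of thyroid hormone receptor TPM in the control libraries. With the longest transcript as length, mean control levels put Thra (6.91 TPM) above Nr3c1 (5.32 TPM) and Nr6a1 (2.48 TPM) above Thrb (1.85 TPM).

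**Figure D1:**
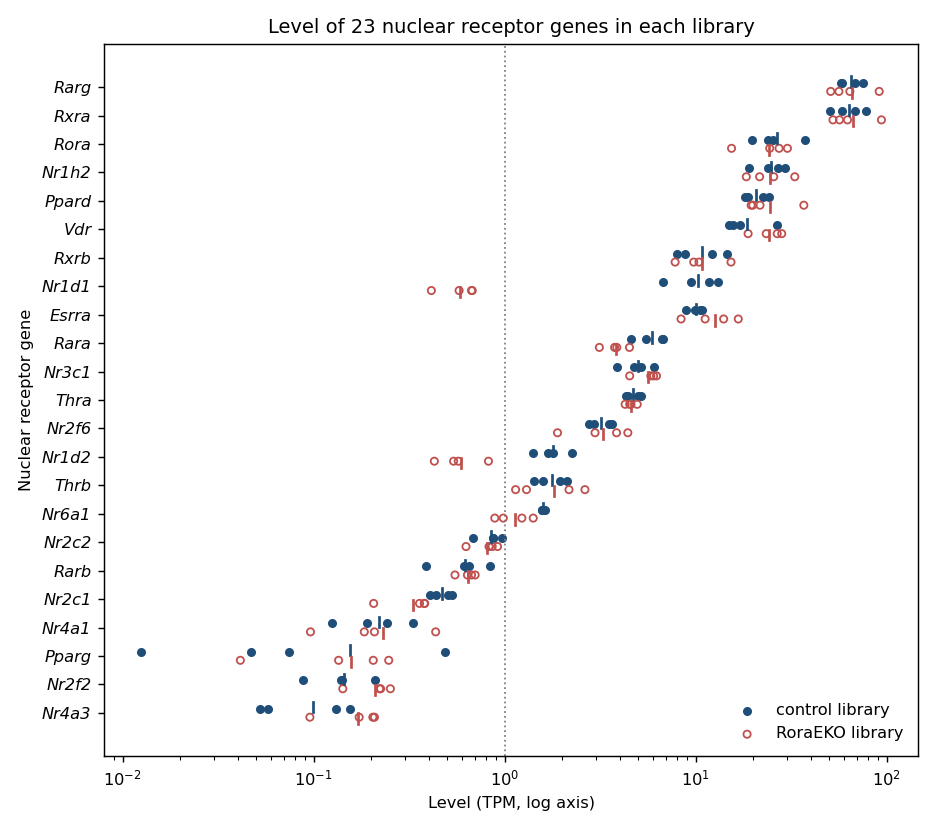
Level of the 23 nuclear receptor genes that passed the filter on low counts, in TPM on a log axis, with 1 point per library (filled, control; open, labelled RoraEKO), short vertical bars at the group means and a dotted line at 1 TPM. Rarg and Rxra lead at mean control levels of 64.8 and 63.7 TPM, and the open points of Nr1d1 and Nr1d2 lie to the left of 1 TPM, away from their control points.

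By the same rule of 1 TPM in every library, 13 receptors were expressed in the libraries labelled RoraEKO. The 3 that left the group were Nr1d1, Nr1d2 and Nr6a1, and none joined it. Nr6a1 was under the limit in RoraEKO A3 and B4 alone, at 0.887 and 0.983 TPM, and with the length of the longest transcript its mean in the libraries labelled RoraEKO was 1.78 TPM. Nr1d1 moved from rank 8 by mean TPM in control to rank 18, and Nr1d2 from rank 14 to rank 17. The share of both REV-ERB genes in the receptor TPM was 3.19 to 5.17% in the control libraries and 0.353 to 0.501% in those labelled RoraEKO. The ratio of Rora to REV-ERB TPM was 1.7 to 2.92 in control and 14 to 27.7 in the libraries labelled RoraEKO, without overlap.

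The genotype comparison covered the 23 receptors that passed the low-count filter, and it was read from the edgeR quasi-likelihood test of all 13147 genes, where a call required both an adjusted p (Benjamini-Hochberg) under 0.05 and at least 1.5-fold change. Of all genes tested, 725 (5.51%) passed both cutoffs, 423 (3.22%) lower and 302 (2.3%) higher in the libraries labelled RoraEKO. Of the 23 receptors, Nr1d1 and Nr1d2 fell and 0 rose, 8.7% in all. At an unadjusted p of 0.05 in edgeR, 3 receptors were lower and 1 was higher. The share of all genes at that unadjusted cutoff was not computed. DESeq2 called 2 receptors lower and 0 higher, against 553 lower and 478 higher among all genes. The other 21 had log2 fold changes (RoraEKO minus control) from -0.55 to 0.85, with a smallest adjusted p of 0.104 (edgeR). The median log2 fold change was 0.03 over the 23 receptors and -0.04 over all genes.

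**Figure D2:**
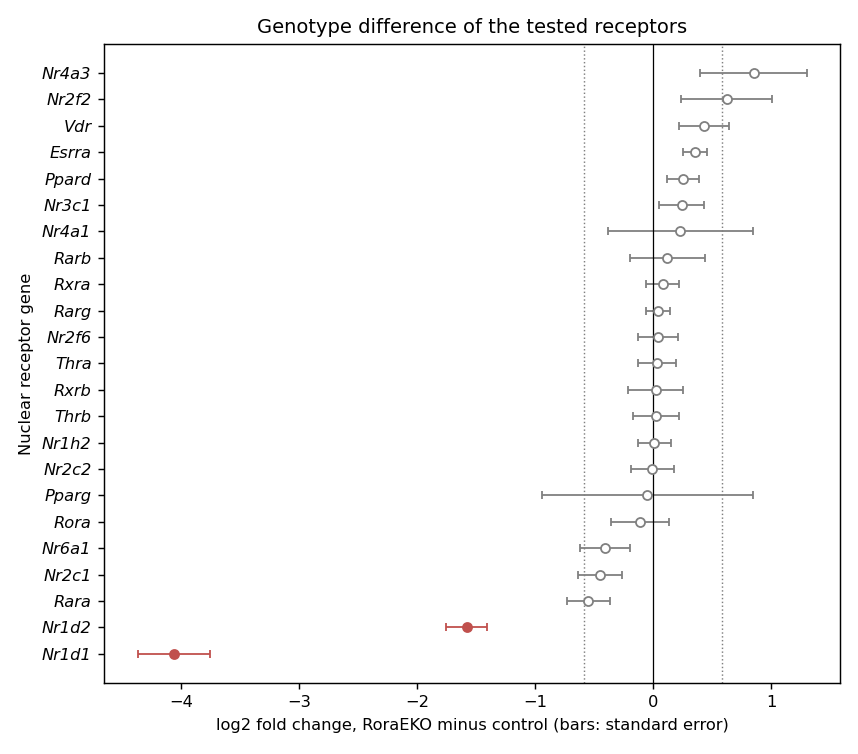
Log2 fold change (RoraEKO minus control) of the 23 tested receptors with standard errors as bars and dotted lines at a fold change of 1.5 in either direction, filled points being those past both cutoffs. Nr1d1 at -4.06 and Nr1d2 at -1.58 lie outside the interval from -0.55 to 0.85 that holds the other 21.

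In 5 receptors (21.7% of those tested, against 12.9% of all genes) the 4 libraries of one genotype did not overlap the 4 of the other. These were Nr1d1, Nr1d2, Rara and Nr6a1, lower in the libraries labelled RoraEKO, and Esrra, higher. Among all genes, 7.54% were lower and 5.4% higher without overlap.

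Nr1d1 (ENSMUSG00000020889) lies on the minus strand of chromosome 11, 98658752 to 98666188 in GRCm39, and Nr1d2 (ENSMUSG00000021775) on the plus strand of chromosome 14, 4230545 to 4266624. The sequences upstream of their first exons are shown because these 2 genes are the receptors that fell, and because receptors of the ROR and REV-ERB subfamilies read the motif AGGTCA. Each run starts 250 bases before the start of the Ensembl canonical transcript. It ends at the last base before the first annotated exon of the gene. Both genes overlap a long noncoding RNA gene annotated on the opposite strand (Gm31862 for Nr1d1, Gm62505 for Nr1d2). Capitals mark AGGTCA.

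Nr1d1, GRCm39 chr11:98666189-98666409, minus strand: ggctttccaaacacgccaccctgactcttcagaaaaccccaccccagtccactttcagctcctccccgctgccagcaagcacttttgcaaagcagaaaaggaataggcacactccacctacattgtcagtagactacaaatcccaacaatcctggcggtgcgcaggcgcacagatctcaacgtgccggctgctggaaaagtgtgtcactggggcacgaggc
Nr1d2, GRCm39 chr14:4230295-4230544, plus strand: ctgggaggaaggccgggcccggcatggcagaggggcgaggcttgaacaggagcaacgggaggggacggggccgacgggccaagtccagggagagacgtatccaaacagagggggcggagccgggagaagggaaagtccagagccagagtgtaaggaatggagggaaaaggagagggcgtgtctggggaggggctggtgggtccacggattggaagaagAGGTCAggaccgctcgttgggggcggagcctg

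Nr1d2 holds 1 match to AGGTCA in this window and Nr1d1 holds none. AGGTCA and 2 other motifs were searched on both strands from 250 bases before to 50 after the canonical start, namely ANTNGGTCA (the core of the longer ROR and REV-ERB element, which includes AGGTCA where the base before GGTCA is A) and the E-box CACGTG, bound by BMAL1 with its partners. AGGTCA occurred in 6 of the 46 receptor windows (13%) and in 15.1% of 21770 protein-coding genes. The 6 receptors were Nr0b1, Nr1d2, Nr1h4, Hnf4g, Nr2f6 and Nr6a1. ANTNGGTCA occurred in 1 receptor window, that of Rxrg, against 2.24% of all windows, and CACGTG in 5 (10.9%), against 7.81%. Those with CACGTG were Nr0b2, Thrb, Nr1i3, Esr2 and Nr5a1. These matches describe the letters in the windows and say nothing of binding, and no match says only that the letters are not there.

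Nr1d1 stood at 16.9, 22.4, 11.8 and 21.6 CPM in control A1, B1, C1 and C6 and at 1.5, 0.945, 1.25 and 0.699 CPM in the libraries labelled RoraEKO A3, B4, C2 and C3. All 4 libraries labelled RoraEKO were low, and the lowest control library was many times above the highest of them. Nr1d1 was 16.7-fold lower, a log2 fold change of -4.06 with a standard error of 0.305 (edgeR adjusted p = 0.000112). Under all 17 alternatives it remained past the cutoffs, with log2 fold changes from -4.22 to -3.89.

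Nr1d2 stood at 8.41, 8.52, 6.86 and 11.6 CPM in the control libraries and at 2.68, 3.21, 3.28 and 2.7 CPM in those labelled RoraEKO. The latter formed a narrow band below every control library. Nr1d2 was 2.98-fold lower, with a log2 fold change of -1.58 and a standard error of 0.172 (edgeR adjusted p = 0.00173), and it too remained past the cutoffs under all 17 alternatives (-1.68 to -1.39). In TPM, Nr1d2 was 0.136 to 0.208 of Nr1d1 in control and 0.639 to 1.38 of it in the libraries labelled RoraEKO, so that the levels of the REV-ERB genes, unequal in control, were similar there. The values library by library are plotted with those of 6 other receptors.

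**Figure D3:**
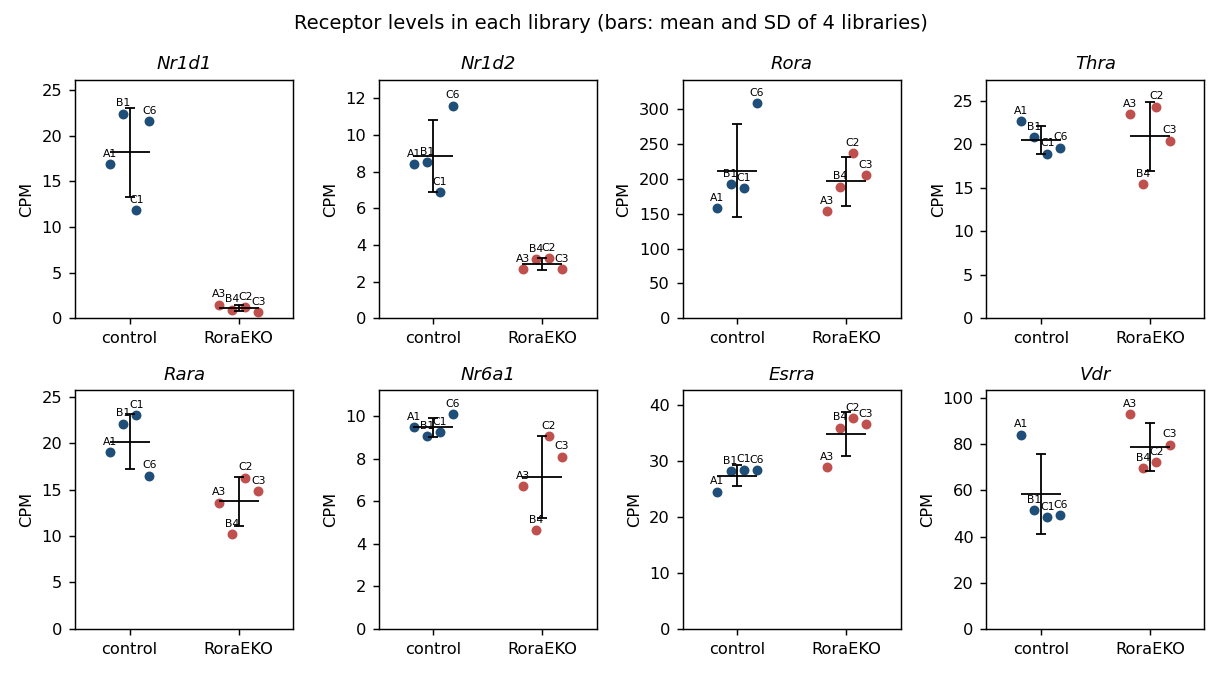
CPM of 8 receptors in each library, with the library named at each point and bars at the mean and SD of 4 libraries, each panel starting at 0. Nr1d1 averages 18.2 CPM in control and 1.1 in the libraries labelled RoraEKO, Nr1d2 averages 8.85 and 2.96, and the genotypes overlap for Rora, Thra and Vdr but not for Rara, Nr6a1 and Esrra.

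Nr1d1 shares its locus with another receptor. Thra (ENSMUSG00000058756) is transcribed from the plus strand of chromosome 11, 98629109 to 98661924, and the 2 genes run into each other tail to tail over 3173 bases. Of the exon bases of Nr1d1, 1694 (52.3%) are also exonic in Thra, where they make up 21.4%, and they belong to 25 of the 32 annotated Thra transcripts but not to the canonical one. The libraries were made with a stranded kit, but the strand setting of the counting step is not given in the sources used here, so reads of the shared part may have been split between the genes.

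**Figure D4:**
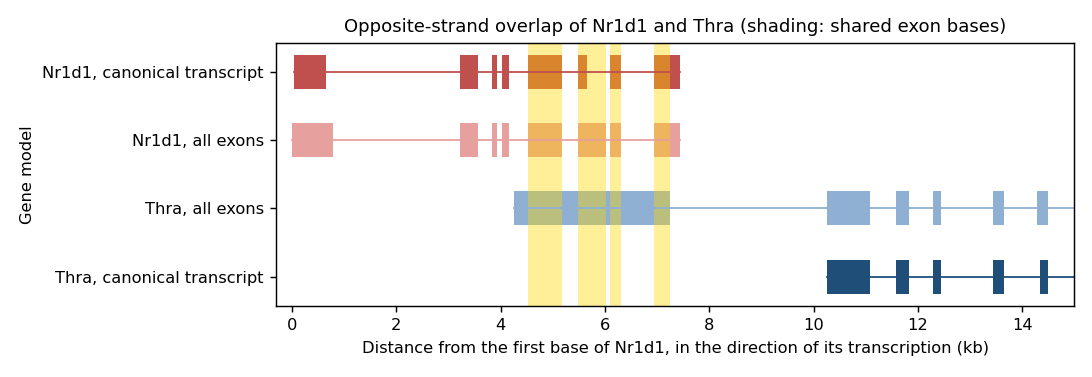
Map of the exons (boxes) of Nr1d1 and the 3' part of Thra by distance in kb from the first base of Nr1d1, with shading over exon bases that both genes hold, 1694 in all. The shaded bases lie in the last exon of the longer Thra transcripts, and the canonical Thra transcript ends before them.

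Thra itself was at 22.6, 20.8, 18.9 and 19.6 CPM in control and at 23.4, 15.4, 24.3 and 20.4 CPM in the libraries labelled RoraEKO. Its genotypes overlapped throughout, with RoraEKO B4 the lowest and RoraEKO C2 the highest of the 8. The log2 fold change was 0.03 with a standard error of 0.159 (edgeR adjusted p = 0.959), and its sign changed with library size alone as the scaling (-0.04). The other thyroid hormone receptor gene, Thrb, averaged 8.92 ± 1.81 and 9.03 ± 1.65 CPM (SD, n = 4 each). Neither gene passed the cutoffs, although Thra lies next to Nr1d1. Of the 16 expressed receptors, 13 overlap some gene annotated on the opposite strand, and besides Thra and Nr1d1 the protein-coding partners of expressed receptors were Trmt112 for Esrra and Ocel1 for Nr2f6, at log2 fold changes of -0.26 and 0.04 (edgeR adjusted p = 0.577 and 0.955).

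Rora (ENSMUSG00000032238, plus strand of chromosome 9, 68561068 to 69295528) was counted over the whole gene. It was at 158, 193, 187 and 309 CPM in control and at 154, 189, 237 and 206 CPM in the libraries labelled RoraEKO. Control C6 was the highest library and the other 7 were intermixed. The log2 fold change was -0.11 with a standard error of 0.245 (edgeR adjusted p = 0.877), and it turned to 0.15 without control C6. Which exons the loxP sites flank is not given in the sources used here, and reads of the remaining exons enter the gene total, so this value does not check the genotype labels. Rorb, the only other ROR gene among the 46, had 0 counts in every library.

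None of the 5 tested retinoid receptor genes passed the cutoffs in edgeR or DESeq2. Rarg was at 191, 167, 146 and 152 CPM in control and at 163, 182, 174 and 155 CPM in the libraries labelled RoraEKO, with a log2 fold change of 0.04 and a standard error of 0.1. Rxra was at 190, 281, 254 and 230 CPM and at 248, 278, 260 and 223 CPM, with a log2 fold change of 0.08 and a standard error of 0.138. Both genes had libraries of the 2 genotypes mixed over the same range. Rxrb was at 34.4, 27.5, 18.6 and 21.7 CPM and at 30.9, 28.5, 22.5 and 22 CPM, and in both genotypes the libraries titled A and B were above those titled C. What the title letter marks is not given in the labels. Rarb, low in all 8 libraries, averaged 2.86 ± 0.935 and 3.13 ± 0.905 CPM (SD, n = 4 each).

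Rara was the retinoid receptor whose genotypes did not overlap. It was at 19, 22.1, 23 and 16.5 CPM in control and at 13.6, 10.2, 16.3 and 14.8 CPM in the libraries labelled RoraEKO. The gap between control C6 and RoraEKO C2 was narrow beside the spread within either genotype. The log2 fold change was -0.55 with a standard error of 0.181 and the edgeR adjusted p was 0.104, short of the cutoff. Rara lies on the same chromosome as Nr1d1, at 98818612 to 98865768 on chromosome 11.

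Nr6a1, the other receptor lower without overlap, was at 9.48, 9.07, 9.23 and 10.1 CPM in control and at 6.72, 4.64, 9.06 and 8.09 CPM in the libraries labelled RoraEKO. RoraEKO C2 lay just under the lowest control library, and RoraEKO B4 was the lowest. The log2 fold change was -0.41 with a standard error of 0.211 (edgeR adjusted p = 0.321). Nr6a1 is best known for silencing pluripotency genes in the early embryo and in germ cells. The orphan receptors Nr2c1 and Nr2c2, which bind repeats of AGGTCA, averaged 3.28 ± 0.326 and 7.45 ± 1.22 CPM in control and 2.4 ± 0.63 and 7.4 ± 1.39 CPM in the libraries labelled RoraEKO (SD, n = 4), with overlap in both.

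Esrra was the only tested receptor whose libraries labelled RoraEKO all lay above the control libraries. It was at 24.5, 28.2, 28.4 and 28.3 CPM in control and at 28.9, 35.9, 37.6 and 36.5 CPM in the libraries labelled RoraEKO. Control A1 and RoraEKO A3 were the lowest of their groups. The log2 fold change was 0.35 with a standard error of 0.101 (edgeR adjusted p = 0.144), and without RoraEKO A3 the adjusted p was 0.0456 while the fold change stayed under 1.5.

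Vdr was at 84.2, 51.5, 48.6 and 49.2 CPM in control and at 93.1, 69.8, 72.4 and 79.9 CPM in the libraries labelled RoraEKO. Control A1 reached into the range of the libraries labelled RoraEKO, and the other 3 control libraries were close together below it. The log2 fold change was 0.43 with a standard error of 0.212 (edgeR adjusted p = 0.28). Without control A1 it was 0.66 with an adjusted p of 0.0145, past both cutoffs. With all 8 libraries and the title letter as a block the edgeR adjusted p was 0.0373 at a log2 fold change of 0.47, under the fold cutoff, and with Xist as a covariate the log2 fold change was 0.21 (edgeR adjusted p = 0.624). Control A1 also held the highest sum of hair follicle markers, 32300 CPM against at most 21800 in any other library, and the highest sum of sebocyte markers, 73.8 CPM against at most 44.9. The part of either in the Vdr value was not tested.

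The lipid sensors among the expressed receptors did not pass the cutoffs. Ppard was at 99.6, 88.4, 73.6 and 80.4 CPM in control and at 103, 119, 98.2 and 85.2 CPM in the libraries labelled RoraEKO, a log2 fold change of 0.25 with a standard error of 0.137 (edgeR adjusted p = 0.415). Nr1h2 was at 56.2, 49, 35.9 and 47.4 CPM and at 44, 49.3, 50.1 and 46.3 CPM, a log2 fold change of 0.01 with a standard error of 0.142. Libraries of both genotypes interleaved for each gene. Pparg, which encodes the PPAR of adipocytes and sebocytes, was at 1.87 CPM in control A1 but at 0.273, 0.0473 and 0.188 CPM in the other control libraries, the same library in which sebocyte markers were highest. In the libraries labelled RoraEKO Pparg was at 0.653, 0.616, 0.193 and 0.899 CPM, within the control range.

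Nr3c1 was at 16.8, 21.5, 20.3 and 27.3 CPM in control and at 24.5, 21.2, 31.8 and 23.9 CPM in the libraries labelled RoraEKO, with overlap and a log2 fold change of 0.24 (standard error 0.188, edgeR adjusted p = 0.564). The immediate early receptor genes Nr4a1 and Nr4a3, induced by many stimuli within minutes, averaged 1.32 ± 0.523 and 0.326 ± 0.177 CPM in control and 1.56 ± 1.17 and 0.608 ± 0.251 CPM in the libraries labelled RoraEKO (SD, n = 4). The COUP-TF receptors Nr2f2 and Nr2f6 averaged 0.749 ± 0.284 and 8.41 ± 0.909 CPM in control and 1.17 ± 0.449 and 8.64 ± 1.6 CPM in the libraries labelled RoraEKO. None of these 5 receptors passed the cutoffs or separated the genotypes.

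Sex steroid and mineralocorticoid receptors were near the limit of detection, and being filtered out they had no test in the comparison above. The progesterone receptor gene Pgr had 6, 6, 9 and 10 counts in control A1, B1, C1 and C6 and 1, 0, 3 and 2 counts in RoraEKO A3, B4, C2 and C3. Nr3c2, the mineralocorticoid receptor gene, had 7, 11, 10 and 11 counts and 4, 1, 5 and 1 counts. For both genes every control library was above every library labelled RoraEKO. Once scaled, the margin for Nr3c2 was small, at 0.266 CPM in control A1 and 0.261 CPM in RoraEKO A3. How many other genes removed by the filter lacked overlap was not computed. Scaled for depth, the ratio of summed counts, control over RoraEKO, was 4.5 (exact 95% interval 1.85 to 13.2) for Pgr and 3.09 (1.55 to 6.69) for Nr3c2, intervals that cover counting error only. Without the filter, their edgeR adjusted p was 0.261 and 0.379.

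The oestrogen receptor genes had the opposite order. Esr1 had 0, 1, 2 and 3 counts in control and 4, 4, 8 and 8 counts in the libraries labelled RoraEKO, a ratio of 0.218 (0.0728 to 0.547). Esr2 had 5, 3, 3 and 5 counts and 5, 4, 19 and 13 counts, a ratio of 0.34 (0.178 to 0.619). Esr1 separated the genotypes and Esr2 did not, its high values being those of RoraEKO C2 and C3. Their edgeR adjusted p without the filter was 0.251 and 0.275. RoraEKO C2 and C3 also had the highest sums of endothelial markers, 3.23 and 2 CPM against at most 0.875 in the other libraries, and the part of these cells in the values was not tested.

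The other members with counts above the floor in some library were Ppara (1 to 6 counts in control, 0 to 3 in the libraries labelled RoraEKO), Nr1h3 (1 to 15 and 1 to 10), Hnf4a (0 to 4 and 0), Esrrg (4 to 9 and 2 to 5), Nr4a2 (2 to 20 and 3 to 12) and Nr5a1 (1 to 2 and 0 to 12). Each is better known from other tissues, PPARα and HNF4α from liver, ERRγ from muscle and heart, and SF-1, the product of Nr5a1, from adrenal gland and gonad. In Nr1h3 the high library was again control A1, with 15 counts. The 13 receptors not detected were Nr0b1, Nr0b2, Rorb, Nr1h4, Nr1i2, Nr1i3, Hnf4g, Rxrg, Nr2e1, Nr2e3, Nr2f1, Esrrb and Nr5a2, among them the bile acid receptor FXR (Nr1h4), the xenobiotic receptors PXR and CAR (Nr1i2 and Nr1i3), and the photoreceptor and neural receptors Nr2e3 and Nr2e1. Nr0b1, Nr0b2, Rorb, Hnf4g, Nr2e1 and Nr2f1 were at 0 in all 8 libraries. For Nr5a1 the ratio of summed counts, control over RoraEKO, was 0.229 (exact 95% interval 0.0669 to 0.635, counting error only), with the counts above 2 in RoraEKO C2 and C3 alone and an edgeR adjusted p of 0.467 without the filter.

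The genes around the receptors were read from 11 lists, comprising co-regulators, enzymes and carriers of receptor ligands, and known targets of each receptor group. The lists were chosen with earlier results of these data known, so their counts and medians are description only. Of 93 distinct genes that passed the filter, 10 passed the cutoffs in edgeR, 5 lower and 5 higher in the libraries labelled RoraEKO, against 5.51% of all genes (3.22% lower and 2.3% higher). The lists of co-regulators and of PPAR, RAR and thyroid hormone receptor targets held 0 calls in edgeR. At an unadjusted p of 0.05 these 4 lists had 4, 1, 2 and 1 genes. The share of all genes at that unadjusted p was not computed. DESeq2 called 0, 0, 1 and 1 genes of these lists, against 1031 of all genes.

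The co-regulators, through which receptors recruit histone-modifying enzymes, held 0 calls. Of 26 listed genes 23 were tested, their log2 fold changes ran from -0.41 to 0.59 and their median was -0.01. The most abundant was Hr, which encodes the hairless co-repressor of the vitamin D and thyroid hormone receptors, at 266 ± 31.7 CPM in control and 263 ± 106 CPM in the libraries labelled RoraEKO (SD, n = 4). Ncor1, a co-repressor gene whose product silences genes through unliganded receptors and REV-ERB proteins, differed by -0.12 on the log2 scale (edgeR adjusted p = 0.666). The smallest adjusted p was that of the coactivator gene Pprc1, at 0.50 (0.073, edgeR), and the largest difference that of Lcor, at 0.59 (0.27). The genotypes did not overlap for 3 of the 23, where all genes had 12.9%, the adapter gene Nrip1 (RIP140) at -0.41, the co-repressor complex subunit gene Tbl1xr1 at -0.38 and the histone demethylase gene Kdm1a (LSD1) at 0.18, with edgeR adjusted p values of 0.129, 0.11 and 0.406.

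Of the 11 genes listed as targets of ROR and REV-ERB proteins, 6 were tested, and Bmal1 and Npas2 fell in edgeR. DESeq2 called 4 lower, adding Clock and Nfil3. The median log2 fold change of this list was -1.11, against -0.04 for all genes. Bmal1 (also Arntl), the core activator of the clock, was at 14.3, 18.3, 15.1 and 22.5 CPM in control and at 4.05, 2.71, 3.52 and 3 CPM in the libraries labelled RoraEKO, a log2 fold change of -2.41 (standard error 0.193, edgeR adjusted p = 0.000238). Npas2, which encodes a partner of BMAL1, was at 2.44, 3.93, 3.93 and 4.35 CPM in control, and the libraries labelled RoraEKO held 0 counts except B4, at 0.0822 CPM (edgeR adjusted p = 0.000339). For both genes the genotypes lay far apart, as they did for Nr1d1 and Nr1d2. Clock, the other partner of BMAL1, averaged 23 ± 9.25 and 9.94 ± 2.54 CPM (SD, n = 4), missed the cutoff in edgeR at an adjusted p of 0.0564 and overlapped between genotypes. Cry1 and Nfil3, also on the list, had log2 fold changes of 0.24 and -1.01. Elovl3, an enzyme gene of fatty acid elongation, had the highest mean control CPM of the list through control A1 alone, at 97.9, 11.1, 14.4 and 15.8 CPM in control and 2.51 to 25.5 CPM in the libraries labelled RoraEKO.

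Nr1d1 itself is a target of BMAL1 at E-boxes, and 9 other such clock-controlled genes were listed. Of 8 tested, Dbp fell, from 5.05 ± 0.831 CPM in control to 0.563 ± 0.23 CPM (SD, n = 4), a log2 fold change of -3.17 with a standard error of 0.296 (edgeR adjusted p = 0.000597). Its 4 libraries labelled RoraEKO were all below every control library. In the promoter windows searched above, Dbp and Nr1d1 held no CACGTG, and Dbp held AGGTCA and ANTNGGTCA. Of the listed genes, Per1, Tef, Bhlhe40, Bhlhe41 and Ciart held CACGTG there. Bhlhe40, the most abundant gene of the list, and Per1 were at log2 fold changes of 0.21 and 0.05, and Per2, which encodes a repressor of BMAL1, was at 0.87, higher in the libraries labelled RoraEKO with an edgeR adjusted p of 0.178. Per3, Ciart and Hlf were at -0.68, -0.63 and -0.46 (edgeR adjusted p = 0.228, 0.231 and 0.533). At an unadjusted p of 0.05 the list held 3 lower genes and 1 higher, with no share of all genes computed at that cutoff. The list median was -0.37.

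Of 12 tested targets of the glucocorticoid and mineralocorticoid receptors, Tsc22d3 (GILZ) and Ddit4 (REDD1) fell and Fkbp5, which encodes a chaperone that lowers the hormone affinity of the receptor, rose in edgeR, and 9 were not called. DESeq2 called 4 lower, with Klf9 and Mt2 besides, and 1 higher. Tsc22d3 was at 15.7, 20.4, 14.7 and 17.2 CPM in control and at 9.07, 11, 8.82 and 7.19 CPM in the libraries labelled RoraEKO (log2 fold change -0.92, standard error 0.16, edgeR adjusted p = 0.00983). Ddit4 was at 33.1, 42.9, 37.9 and 39.4 CPM and at 16.6, 15.7, 15.7 and 18.8 CPM (-1.20, standard error 0.0992, edgeR adjusted p = 0.000598). Fkbp5 was at 8.87, 11.6, 11.6 and 15.8 CPM and at 26.6, 89.2, 35.5 and 26.7 CPM (1.89, standard error 0.445, edgeR adjusted p = 0.0227). The genotypes did not overlap for any of the 3, and RoraEKO B4 was the outlying library for Fkbp5, as it was for the sum of basal keratinocyte markers (1130 CPM against at most 465 in the others). The Fkbp5 call was lost without control B1 or without control C1 (adjusted p of 0.0788 and 0.0691, edgeR) while its log2 fold change stayed at 1.88, and it was 1.30 without RoraEKO B4 (0.0106). The call of Tsc22d3 was lost without RoraEKO C2 (0.0544) at a log2 fold change of -0.83. The list median of 0.04 lay near that of all genes, and its most abundant gene, Scnn1a, a subunit of the epithelial sodium channel, averaged 175 ± 28 and 249 ± 21.4 CPM (SD, n = 4) with an edgeR adjusted p of 0.0782.

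Single genes rose in 4 other lists. Smpdl3a, a phosphodiesterase gene induced by LXR ligands, was at 49.7, 32.4, 30.6 and 37 CPM in control and at 69.4, 83.4, 81.6 and 63.8 CPM in the libraries labelled RoraEKO (log2 fold change 0.99, standard error 0.182, edgeR adjusted p = 0.00829). With Xist as a covariate its log2 fold change was 0.86 and the edgeR adjusted p 0.0611. None of the other 9 tested LXR targets was called, among them Abca1, Srebf1 and the most abundant, Apoe. Cyp2b10, the classical liver target of CAR, was at 26.5, 41.5, 41.9 and 29.9 CPM and at 69.5, 71, 72.8 and 64.5 CPM (0.99, standard error 0.172, edgeR adjusted p = 0.00673), although the CAR gene Nr1i3 had at most 3 counts in any library. Both genes were higher in every library labelled RoraEKO than in any control library.

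Tslp, an epithelial cytokine gene that ligands of the vitamin D receptor induce in mouse skin, had at most 0.0546 CPM in the control libraries and 1.04, 0.863, 1.45 and 1.7 CPM in the libraries labelled RoraEKO (edgeR adjusted p = 0.00119). The control libraries were thus at or under the floor of 3 counts. It was the only call among the 3 tested VDR targets, of which Atp2b1 was the most abundant (15.7 ± 4.25 and 20 ± 5.06 CPM, SD, n = 4). Dhrs9, an enzyme of retinoid metabolism, was at 0.305, 0.601, 0.568 and 1.2 CPM in control and at 0.979, 4.07, 3.95 and 3.59 CPM in the libraries labelled RoraEKO (log2 fold change 2.23, standard error 0.588, edgeR adjusted p = 0.0356). RoraEKO A3 lay within the control range, and the call did not hold without any one of control A1, B1 or C1 or of RoraEKO B4, C2 or C3 (edgeR adjusted p from 0.0521 to 0.11), with log2 fold changes still from 1.97 to 2.18.

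Other genes of ligand supply did not pass the cutoffs in edgeR, and DESeq2 also called Rdh10 and Cyp26b1 lower. Rdh10, which makes retinaldehyde, averaged 12.2 ± 3.58 CPM in control and 7.21 ± 0.27 CPM in the libraries labelled RoraEKO, and Srd5a1, a steroid 5α-reductase gene, averaged 60 ± 8.67 and 40.8 ± 5.34 CPM (SD, n = 4), each with an edgeR adjusted p of 0.0531. In both genes the genotypes did not overlap. Cyp26b1, which degrades retinoic acid, averaged 12.6 ± 3.91 and 3.79 ± 3.99 CPM (SD, n = 4) with RoraEKO B4 inside the control range (edgeR adjusted p = 0.155). Dhrs3 and Crabp2, the most abundant of the ligand genes and of the RAR targets, had log2 fold changes of -0.21 and -0.33 (edgeR adjusted p = 0.502 and 0.248). The median log2 fold change was -0.21 for the 9 tested of 23 ligand genes, -0.21 for 7 of 10 RAR targets, -0.06 for 15 of 19 PPAR targets and -0.02 for 3 of 6 thyroid hormone receptor targets. It was 0.13 for 10 of 13 LXR targets, 0.35 for 3 of 7 VDR targets and 0.65 for 2 of 7 PXR and CAR targets, against -0.04 for all genes. The most abundant PPAR target, Acsl1, averaged 331 ± 84 and 330 ± 44 CPM (SD, n = 4).

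**Figure D5:**
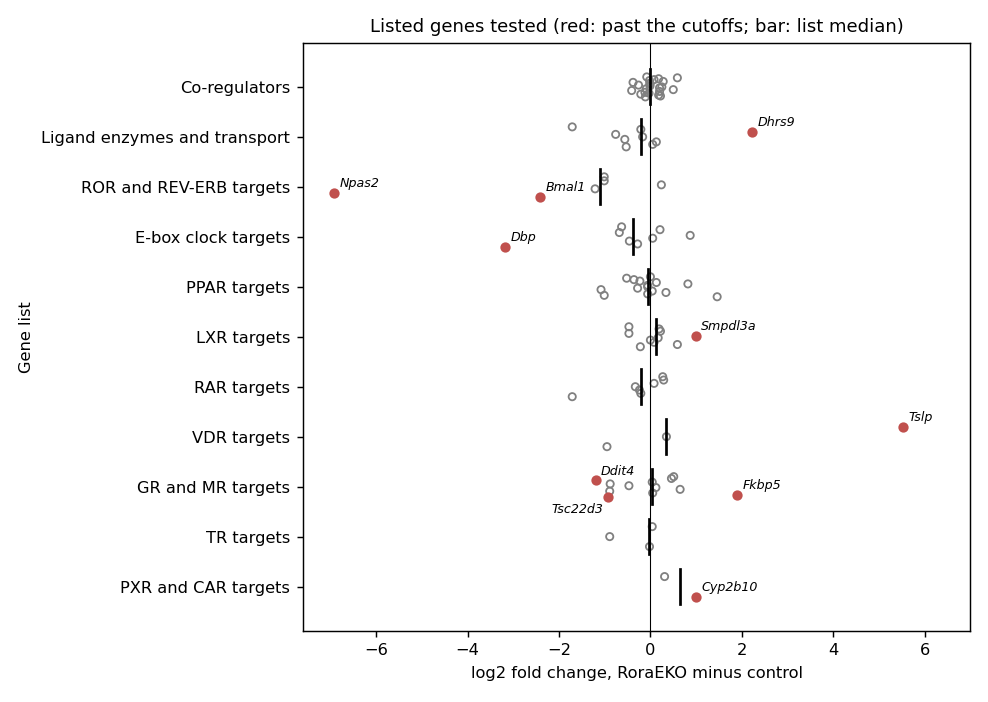
Log2 fold change (RoraEKO minus control) of each tested gene in 11 lists, with filled and named points past both cutoffs and a black bar at the list median; the fitted values of Npas2 and Tslp depend on the prior count because one genotype was at or under 3 counts. Among these lists, chosen with earlier results of these data known, the ROR and REV-ERB targets have the lowest median, -1.11. The co-regulators stay between -0.41 and 0.59.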

How the data were processed

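RNA-seq of P4 dorsal epidermis was analysed in 8 libraries, 4 per genotype, grouped by the genotype label. The authors made poly(A)-selected libraries with a stranded TruSeq kit, used Skewer for trimming and STAR 2.5.3a for mapping to GRCm39, and deposited RSEM expected counts per Ensembl gene, without scaling. Their annotation release and the strand setting of RSEM are not given in the sources used here. The name of the gene ID column is missing from the header, so the names of the sample columns sit 1 cell to the left, and each was assigned by matching it to a sample title.

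Expected counts, not all of them whole, were rounded and passed through filterByExpr, TMM scaling and quasi-likelihood testing in edgeR 4.0.16 (R 4.3.3, no covariates). CPM, used between genotypes, include the TMM factors. TPM, used between genes, are counts over the union of exon lengths of GENCODE mouse release 39, which held 54749 of the 55416 gene IDs. Standard errors refer to the genotype difference in log2 CPM, computed with a prior count of 2. As alternatives, DESeq2 1.42.0, RLE scaling, library size alone, the newer and the robust form of the test, no filter, at least 10 counts in every library, the title letter as a block, Xist as a covariate, the adjusted p alone, each library left out, and other TPM limits and gene lengths were tried. Scripts were tested on simulated counts.

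The 46 members, the gene lists and the tests were chosen with earlier results of these data known. Described library by library are Rora, receptors past the cutoffs, past an adjusted p of 0.05 under at least 3 alternatives or without overlap between genotypes, the 10 highest by control TPM, and Thra. Of the lists, up to 4 genes past the cutoffs and the most abundant tested gene are given. Pparg, Nr3c1, the sex steroid receptors and other list genes were chosen after their values were seen. For 1 listed gene no matching symbol was found. Protein sequences were not used here, and 1 listed gene is not reported here.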

Additional observations from a re-analysis of the deposited data

Results flagged for a closer look

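Each set of 4 libraries of a genotype was examined for 1 library far from the other 3 (Dixon's criterion at the 95% level) in the 23 tested receptors, 46 sets in all, of which 3 were marked where chance gives about 1 in 20. Vdr was at 84.2 CPM in control A1 and between 48.6 and 51.5 CPM in the other control libraries. Esrra was at 24.5 CPM in control A1 and between 28.2 and 28.4 CPM in the others. Nr2f6, an orphan receptor of the COUP-TF group, was at 6.26 CPM in RoraEKO A3 and between 9.12 and 9.64 CPM in the other libraries labelled RoraEKO. Control A1 also held the highest sum of hair follicle markers, 32300 CPM, and of sebocyte markers, 73.8 CPM, whose part in the Vdr and Esrra values was not tested.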

How the results depend on the processing

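Of 374 values of the 21 genes followed through the alternatives, 355 kept their direction and their side of the cutoffs. Nr1d1, Nr1d2, Bmal1, Npas2, Dbp, Ddit4, Cyp2b10 and Tslp were among those that kept both wherever they were tested. Rora turned from -0.11 to 0.17 with Xist as a covariate, and ran from -0.23 to 0.15 as each library was left out. Thra turned from 0.03 to -0.04 with library size alone and to -0.06 with Xist, and ran from -0.01 to 0.15 with 1 library out. With Xist as a covariate the calls of Fkbp5, Smpdl3a and Dhrs9 were lost (edgeR adjusted p = 0.0659, 0.0611 and 0.0562), at log2 fold changes of 2.13, 0.86 and 2.85 against 1.89, 0.99 and 2.23.

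Of all genes, 302 were called higher, 478 with DESeq2, 176 with Xist as a covariate, and 174 (without control B1) to 383 (without control A1) with 1 library out (188 without RoraEKO C3). Of the receptors, 0 were called higher, and 0 to 1 with 1 library out, the 1 being Vdr without control A1. Of the listed genes, 5 were called higher, 3 with at least 10 counts in every library, 2 with Xist as a covariate, and 3 (without control B1 or C1) to 7 with 1 library out. For listed genes called lower, 5 became 11 with DESeq2, 3 with at least 10 counts in every library, 9 with the title letter as a replicate block, and 4 to 8 (without control A1) with 1 library out. The causes were not tested. The labels do not say what the title letter marks. Deviations of libraries that share a letter correlated at 0.483 (A), 0.0498 (B) and 0.131 to 0.436 (C) between genotypes. Pairs of different letters ran from -0.517 to 0.282 between genotypes. Within a genotype, the C libraries correlated at -0.048 (control) and 0.0568 (labelled RoraEKO). With the letter as a replicate block 999 genes were called, 715 of them among the 725, and DESeq2 called 1031, with 713 shared.

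The count of expressed receptors, 16, became 17 at 0.5 TPM, 13 at 2 TPM and 17 with the longest transcript as length. The 13 receptors not detected had at most 3 counts in each library. No library pair is stated to share a litter or batch, and high Xist occurred in 2 control libraries and in no library labelled RoraEKO.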
